A study of Mus musculus with 96 samples.

Results

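Aldehyde dehydrogenase 1a3 (Aldh1a3) was followed in mouse islets and liver together with 7 other genes named in work on beta-cell dedifferentiation or on disallowed genes, which beta cells keep low. The 8 members, of 20155 genes with expression values (21990 in the table), were Aldh1a3, the endocrine progenitor factor Neurog3, the peptide hormone genes Gast and Cck, and the disallowed genes Ldha, Slc16a1, Hk1 and Hk2. Aldh1a3 was picked because its islet level had differed repeatedly between the diets in these same libraries, so its islet diet differences are given as a description with no test. The other 7 were picked by name, with earlier results of these data known.

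A mature beta cell takes up glucose through Slc2a2 and passes most of the pyruvate to its mitochondria. Dedifferentiation is the name for a loss of mature beta-cell features, with transcripts of endocrine progenitors or of the embryonic pancreas, such as Neurog3 and Gast, coming back, and Aldh1a3, which oxidises retinaldehyde to retinoic acid, is often used to mark such cells. Disallowed genes serve many other tissues, and in a beta cell a low-Km hexokinase would lower the glucose level at which insulin is released, while the lactate dehydrogenase Ldha and the lactate and pyruvate transporter Slc16a1 would let circulating pyruvate do the same.

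Male C57BL/6N mice were fed a high-fat diet (HFD, 60% by its label) or a chow diet (CD) from 4 weeks of age, and islets and liver were taken after 4, 8, 12, 16, 20 and 24 weeks. Each diet and week had 4 mice, and each of the 48 mice gave 1 islet and 1 liver library, so that each tissue had 12 groups of 4 libraries. Islets were picked by hand from the digested pancreas and sequenced whole, with all their cell types. Levels are in FPKM, the mapped fragments of a gene scaled by the length of its transcript and by the library's fragments, given to 2 decimals.

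FPKM summed to between 892097 and 1278652 in an islet library and to between 560016 and 672369 in a liver library, sums that do not measure depth. The number of fragments per library was not used here, so no counting interval is given. Low levels came in steps: Gast was 0 in 2 islet libraries and 0.09 or 0.10 FPKM in 7, with the next value at 0.17. Cck was 0 in 14 islet libraries and 0.06 or 0.07 FPKM in 13, with the next value at 0.11.

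The tissue labels were checked against defining transcripts. Ins2 lay between 394273 and 707231 FPKM in the 48 islet libraries and had a median of 7.23 FPKM in liver. Alb lay between 16734 and 46057 FPKM in the 48 liver libraries and had a median of 0.84 FPKM in islets. Ins1 and Ins2 together made up between 53.73% and 75.07% of an islet library's FPKM, with a median of 65.19% on CD and 69.44% on HFD.

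A few libraries stood apart. The islet library of the mouse labelled HFD118 (week 4) had 115 genes more than 1 log2 unit above every other islet library, against 22 in the next one, CD103 (week 4), and a median of 0. Chosen after their values were seen, these included the intestinal alkaline phosphatases Akp3 (138.26 FPKM, at most 6.32 in any other islet library) and Alpi (62.56, at most 6.07), the apolipoprotein Apoa4 (191.52, at most 16.2) and the mucin Muc3 (21.69, at most 1.55), which are known from the intestine. In the same library Ldha was 34.25 FPKM (at most 9.81 elsewhere) and Cck 2.62 FPKM (at most 1.09), and their mean differences are given with and without it. Among livers, CD306 (week 12) and CD407 (week 16) held 3541 and 2408 FPKM of Ins1 and Ins2, where the other 46 had a median of 7.46 and at most 388.

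Aldh1a3 was higher in HFD than in CD islets at all 6 weeks, with no overlap of the 4 libraries of each diet at any week. At week 4 the CD islet libraries held 1.06, 0.96, 1.32 and 1.33 FPKM of Aldh1a3 and the HFD libraries 1.52, 3.41, 3.05 and 2.05 FPKM, with means of 1.17 ± 0.186 and 2.51 ± 0.874 (mean ± SD, n = 4 each, as in what follows). The diets were already apart, though by little, since the lowest HFD library, at 1.52, lay just above the highest CD library, at 1.33. At week 8 the values were 2.58, 2.96, 2.35 and 1.35 FPKM on CD (2.31 ± 0.688) and 16.55, 7.22, 12.05 and 3.5 FPKM on HFD (9.83 ± 5.69). HFD217, at 3.5, came closest to the CD range, whose highest value was 2.96. At week 12 they were 1.99, 2.34, 3.44 and 3.13 FPKM on CD (2.72 ± 0.674) and 24.74, 16.18, 24.92 and 25.82 FPKM on HFD (22.9 ± 4.51). Every week 12 HFD library was above 16 FPKM and every CD library under 4 FPKM.

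At week 16 Aldh1a3 was 1.38, 2.45, 1.21 and 3.98 FPKM in CD islets (2.25 ± 1.27) and 32.46, 22.05, 20.2 and 23.17 FPKM in HFD islets (24.5 ± 5.47). The highest CD value of the whole series, 3.98, was found here, still far under the lowest HFD value of the week, 20.2. At week 20 the levels were 2.4, 3.77, 3.7 and 1.71 FPKM on CD (2.9 ± 1.01) and 6.28, 20.97, 16.78 and 13.5 FPKM on HFD (14.4 ± 6.21), where HFD511, at 6.28, was the lowest of its group. At week 24 they were 1.17, 3.39, 2.35 and 2.91 FPKM on CD (2.46 ± 0.956) and 15.59, 62.37, 24.63 and 18.65 FPKM on HFD (30.3 ± 21.7). The SD of that last HFD group came mostly from 1 library at 62.37, the highest Aldh1a3 value of all islet libraries.

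**Figure D1:**
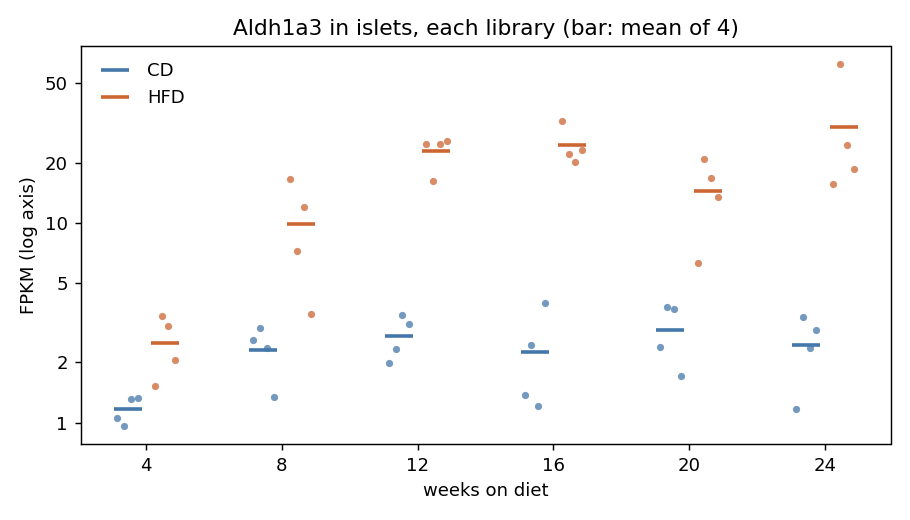
Aldh1a3 level (FPKM, log axis) in each islet library against weeks on diet, with CD in blue and HFD in orange. Each point is 1 mouse and each bar the mean of 4, and the diets do not overlap at any week, with CD between 0.96 and 3.98 FPKM and HFD between 1.52 and 62.37 FPKM.

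Ordered by group mean, the HFD groups of weeks 24, 16, 12, 20 and 8 stood highest, at 30.3, 24.5, 22.9, 14.4 and 9.83 FPKM. The CD groups of weeks 20 and 12 followed at 2.90 and 2.72, then HFD at week 4 at 2.51, and CD at weeks 24, 8, 16 and 4 at 2.46, 2.31, 2.25 and 1.17. All 11 pairs of neighbours in this order had overlapping ranges. The widest steps were 8.5 FPKM, from HFD week 12 to HFD week 20, and 6.93 FPKM, from HFD week 8 to CD week 20. Each was larger than the SD of either of its groups. By median, the HFD groups of weeks 12, 16 and 24 stood at 24.8, 22.6 and 21.6 FPKM. The first place of week 24 by mean thus rested on its library at 62.37 FPKM. The ratio of the HFD to the CD mean was 2.15, 4.26, 8.41, 10.9, 4.97 and 12.3 from the first to the last of the 6 sampled weeks. The week 24 ratio of 12.3 was also raised by the library at 62.37 FPKM, since that group's median was 21.6. Over all weeks the median was 2.35 FPKM in the 24 CD libraries and 16.7 FPKM in the 24 HFD libraries.

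On the log2(FPKM + 1) scale, which understates the change of genes with low levels, the HFD minus CD difference of Aldh1a3 averaged 2.14 over the 6 weeks (SE 0.146) and ran from 0.66 at week 4 to 1.56, 2.68, 3.02, 1.91 and 3.01 at the later weeks. The difference at the later weeks (16, 20 and 24) minus that at the earlier ones (4, 8 and 12) was 1.01. These values are from the contrast for which Aldh1a3 was picked and carry no test. Of 12378 genes, 6 had all HFD islet libraries above all CD libraries in 6 of 6 weeks (0.0485%), Aldh1a3 among them because it was picked for that contrast.

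Aldh1a3 was not picked for its change with age in CD islets. The CD islet values were part of the diet response it was picked for, so this test is not independent of the choice. Aldh1a3 was 1.06, 0.96, 1.32 and 1.33 FPKM in CD islets at week 4 and 1.17, 3.39, 2.35 and 2.91 FPKM at week 24. The lowest week 24 library, at 1.17, lay within the week 4 range and the other 3 above it. With limma, a linear model fitted to all genes on log2(FPKM + 1), the week 24 minus week 4 difference was 0.63 (SE 0.357, adjusted p = 0.178, Benjamini-Hochberg over all genes), not past the threshold of an adjusted p under 0.05. Of the 4 members with at least 1 FPKM in at least 4 islet libraries (Aldh1a3, Neurog3, Ldha and Hk1), 1 passed in this comparison, Hk1, against 31.6% of all 12378 genes.

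In liver, Aldh1a3 stayed between 0.02 and 0.24 FPKM in all 48 libraries, with a median of 0.10 on CD and 0.13 on HFD. The diets overlapped at all 6 weeks, and the difference of 0.04 in a fit with no filter on low levels had an adjusted p of 0.139 by limma. Between the tissues of CD mice the difference, islet minus liver, was 1.52 (adjusted p = 4.85e-22, limma with no filter), with every CD islet library above every CD liver library. This comparison, too, used the CD islet values that entered the choice of Aldh1a3. In that fit 81.0% of 19770 genes passed, and in the liver diet fit with no filter 30.5% of 18453 genes.

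The genes whose pattern was most like that of Aldh1a3 were ranked by Pearson correlation over the 48 islet libraries, among 12377 genes, as a description. The 10 highest were Sel1l3 (r = 0.922), the hyaluronan receptor Cd44 (0.92), the lysine-degrading enzyme Aass (0.916), Ldlrad3 (0.905), the dynein chain Dync1i1 (0.901), Zcchc12 (0.881), Rasl10b (0.881), Slc35f4 (0.879), Fez1 (0.875) and the collagen prolyl hydroxylase P3h2 (0.873). All 10 had higher mean levels on HFD, and the libraries share their diet and week. With the mean of each diet and week subtracted, the 10 highest were Fam167a (0.682), Crb1 (0.678), the potassium channel Kcnk1 (0.677), Nbl1 (0.676), Elmo1 (0.672), Rasgrf2 (0.639), Smoc1 (0.638), Nucb1 (0.632), Unc5b (0.611) and Sema6b (0.61), and 0 genes were in both lists. Of the members, Hk1 had r = -0.769, Neurog3 -0.485 and Ldha -0.383 over the 48 libraries, and 0.0392, 0.22 and -0.0332 after the group means were subtracted.

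Markers of other islet endocrine cells moved opposite to Aldh1a3 over the 48 libraries. The 6 alpha cell markers, with Gcg the most abundant, summed to a median of 12637 FPKM in CD islets (7232 to 16056) and 5009 FPKM in HFD islets (1220 to 15247). Their sum had r = -0.868 with Aldh1a3 over the 48 libraries and -0.43 after the group means were subtracted. The 4 delta cell markers, led by Sst, summed to 3647 (2177 to 4844) on CD and 1469 (330 to 3996) on HFD, and the 2 PP cell markers, led by Ppy, to 4547 (3016 to 8239) and 2115 (526 to 6528), with r of -0.856 and -0.812. After the group means were subtracted these were -0.431 and -0.308. The sums of the other marker lists, described below, then had r between -0.318 (acinar) and 0.388 (endothelial). In the HFD groups of weeks 8 and 20 the library with the least Aldh1a3 had the highest alpha marker sum of its group, HFD217 with 10231 FPKM and HFD511 with 5195 FPKM. In the HFD groups of weeks 4, 12, 16 and 24 it did not. At week 24 the library with the least Aldh1a3, HFD611 at 15.59 FPKM, had the lowest alpha sum, 1220 FPKM. At week 12 the library with the most Aldh1a3, HFD318 at 25.82 FPKM, had the highest alpha sum, 6484 FPKM. None of the markers was at 0 in all islet libraries, and their part in the result was not tested. In bulk islets, fewer cells of a type and less RNA per cell cannot be told apart.

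**Figure D2:**
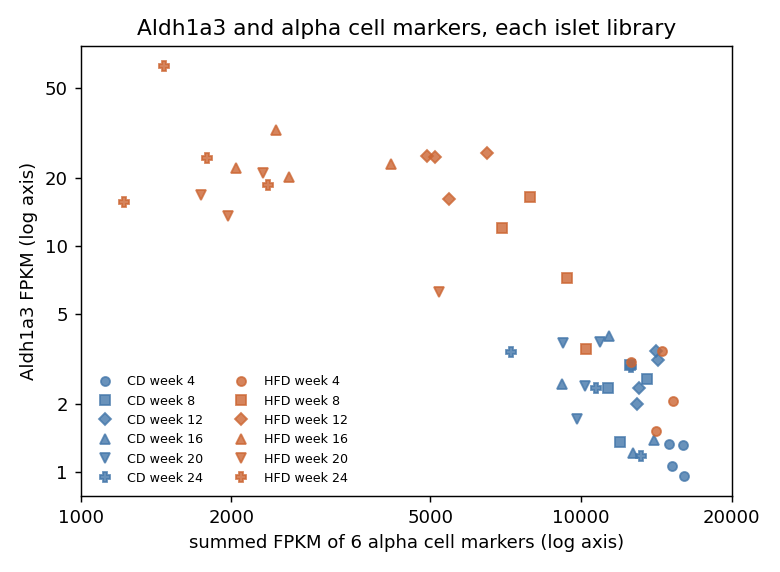
Aldh1a3 level (FPKM, log axis) against the summed level of 6 alpha cell markers (FPKM, log axis) in each of 48 islet libraries, with CD in blue, HFD in orange and 1 symbol per week. The HFD libraries with the least alpha marker RNA are high in Aldh1a3, and the CD libraries and those of HFD week 4 lie together at the lower right.

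All 6 alpha, 4 delta and 2 PP markers fell on HFD in the mean over weeks, with median differences of -1.0, -1.09 and -1.22 where the median of all genes was -0.009 and 38.6% of all genes were called, the share to hold beside each count of this paragraph. The sums of the other marker lists were as follows. The 12 acinar markers, led by Amy2a5, had medians of 27651 FPKM on CD (5986 to 145176) and 18018 on HFD (3956 to 49548), and at week 12 they ran from 60436 to 145176 on CD and from 9388 to 43876 on HFD. The HFD mean was the lower at weeks 4, 12, 16 and 24 and the higher at weeks 8 (26469 against 20931) and 20 (21845 against 12638). Of these, 4 of 12 fell, with a list median of -0.47, and without week 12 3 of 12, with -0.25. The 8 ductal markers, led by Krt7, had medians of 161 and 164 FPKM (5 tested, 2 lower), the 6 endothelial ones, led by Plvap, 167 and 178 (6 tested, 3 higher and 1 lower, but 5 and 0 with insulin left out of the total, 4 and 1 with median ratio scaling and 1 and 0 without week 12), and the 7 stromal ones, led by Dcn, 26.9 and 17.1 (6 tested, 1 higher and 1 lower). The 7 macrophage markers, led by C1qa, had medians of 85.5 and 93.6 FPKM (7 tested, 2 higher, and 5 under either of the 2 scalings), and the 7 lymphoid ones, led by Cd79a, 11.5 and 8.33 (5 tested, 1 lower). For the 5 red blood cell markers, led by Hbb-bs, the sums ran from 73.4 to 326 FPKM on CD and from 89.3 to 901 FPKM on HFD, and 5 of 5 rose, with a list median of 0.75. The 9 hepatocyte markers, led by Ttr, which is also on the alpha list, had medians of 851 and 587 FPKM (7 tested, 1 higher and 2 lower, with 0 higher without week 12 or without HFD118). The 8 proliferation genes, led by Top2a, had medians of 5.92 FPKM on CD and 1.72 FPKM on HFD, and 7 of 7 tested fell. With 1 library left out, the calls of the endothelial Plvap, Kdr and Cdh5 were lost in 17, 7 and 7 of 48 cases, that of Alb in 23 and that of the acinar Cpa1 in 8. No marker of these lists was at 0 in all islet libraries, and the part of these lists in the results for the members was not tested.

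Other genes that handle retinaldehyde and retinoic acid were examined beside Aldh1a3. Of 23 retinoid genes 11 were tested in islets, and in the mean over weeks 1 was higher on HFD, the retinal reductase Rdh11 (0.10), and 2 lower, the retinol carrier Rbp4 (-1.19), which is also on the delta list, and Aldh1a1 (-0.49). The counts were 2 and 3 with median ratio scaling and 2 and 2 with insulin left out of the total. Without HFD118, with the filter at 3 libraries, 12 were tested and 4 were lower, the receptor Rara (-0.15, adjusted p = 0.0437) among them. Of 19 aldehyde dehydrogenases, with Aldh1a3 not counted because it was picked for this contrast, 13 were tested, with 2 higher and 4 lower and a median of 0.01, and without HFD118 15, with 2 higher and 6 lower. The counts were 3 and 5 with median ratio scaling and 4 and 3 with insulin left out. The share of all genes called in this fit was 38.6%. The higher ones were Aldh9a1 (0.20) and Aldh18a1 (0.12), and the lower ones Aldh1a1, the mitochondrial Aldh1l2 (-0.26) and Aldh1b1 (-0.25), and Aldh3b1 (-0.20). The calls of Aldh18a1 (adjusted p = 0.127) and Aldh1l2 (0.0951) were lost in limma without week 12, an alternative added after seeing the data because acinar RNA was highest there, and that of Aldh1l2 also with median ratio scaling (0.0545) and with insulin left out of the total (0.0886).

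The mean diet difference in islets was tested in 12378 genes, of which 4782 passed (38.6%), 2060 higher and 2722 lower on HFD. With median ratio scaling the split was 3546 higher and 2398 lower, and with insulin left out of the total 4444 and 1285, so that the balance of directions over all genes depended on the scaling. Of the list genes past the threshold, 0 changed sign under these scalings. The scalings moved the median of all genes only from -0.009 to 0.021 and 0.059, so that this count says little about stability. Apart from Aldh1a3, 2 of the 3 tested members passed, Hk1 and Neurog3, both lower on HFD.

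Neurog3, the transcription factor that starts the endocrine programme in pancreatic progenitors, was lower in HFD islets. It was 2.05, 3.14, 3.61 and 2.92 FPKM on CD (2.93 ± 0.653) and 1.87, 3.04, 2.87 and 2.47 FPKM on HFD (2.56 ± 0.52) at week 4. At week 8 it was 2.19, 2.01, 3.14 and 2.44 FPKM (2.44 ± 0.496) and 0.91, 1.24, 2.81 and 1.83 FPKM (1.7 ± 0.834). At both weeks the diets overlapped. At week 12 Neurog3 was 3.2, 3.51, 4.38 and 4.36 FPKM on CD (3.86 ± 0.6) and 3.24, 1.36, 1.97 and 1.92 FPKM on HFD (2.12 ± 0.795), and only the highest HFD library reached the CD range. At week 16 it was 1.91, 2.24, 2.39 and 3.75 FPKM (2.57 ± 0.81) and 1.09, 1.36, 0.62 and 1.49 FPKM (1.14 ± 0.385), with every HFD library under every CD library. The levels were 2.58, 2.14, 2.37 and 3.98 FPKM (2.77 ± 0.828) and 1.37, 1.72, 3.15 and 3.75 FPKM (2.5 ± 1.14) at week 20, where the diets overlapped widely, and 2.3, 3.3, 2.9 and 2.81 FPKM (2.83 ± 0.411) and 1.65, 1.79, 2.62 and 1.45 FPKM (1.88 ± 0.514) at week 24, with overlap.

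The mean over weeks of the HFD minus CD difference of Neurog3 was -0.42 (SE 0.083, adjusted p = 1.25e-04, limma), and the HFD mean was the lower in 6 of 6 weeks. Its ranges did not overlap at 1 week, week 16, as in at least 1 week for 29.1% of genes below CD. By week, the difference passed at week 12 (-0.66, adjusted p = 0.011), week 16 (-0.73, 0.0217) and week 24 (-0.42, 0.0464) by limma, and did not at weeks 4 (-0.14, 0.819), 8 (-0.39, 0.205) and 20 (-0.14, 0.725). The week 12 call was lost with no filter (0.0636), and that of week 16 without CD405 (0.0505) or HFD411 (0.0646). The week 24 call was lost without CD605 (0.147), CD606 (0.0973), CD608 (0.0922), HFD611 (0.0736), HFD614 (0.0985) or HFD617 (0.126), with all islet libraries in 1 fit (0.174) and with no filter (0.093). The later minus earlier difference was -0.03 (adjusted p = 0.938), and CD islets at week 24 differed from week 4 by -0.03 (0.934).

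In liver Neurog3 was 0 in 46 of 48 libraries and 0.02 FPKM in CD306 and CD407, the 2 livers with the insulin RNA. The islet minus liver difference in CD mice was 1.94 (SE 0.052, adjusted p = 6.27e-34, limma with no filter, since the filter would have kept Neurog3 for its islet level alone).

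Endocrine progenitor genes were tested as 17 of 19, and 8 were lower on HFD and 0 higher in the mean over weeks, beside 38.6% of all genes called in that fit. The lowest were the serotonergic factor Fev (-1.04), the zinc finger gene Myt1 (-0.47) and Neurog3 itself. The smallest falls were those of Notch1 (-0.17), Amotl2 (-0.16) and the islet factor Rfx6 (-0.13), and the calls of these 3 genes were lost with insulin left out of the total (adjusted p 0.0597, 0.109 and 0.461). Of 11 dedifferentiation genes, Aldh1a3 again not counted, 3 were tested, and all 3 were lower, namely Fev, Neurog3 and the surface protein Cd81 (-0.32). Fev and Neurog3 are on both lists.

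Of 14 beta cell identity genes, all tested, 6 were higher and 2 lower on HFD in the mean over weeks, with a median of 0.05, beside 38.6% of all genes called in that fit. With median ratio scaling 7 were higher and 2 lower, with insulin left out of the total 8 and 1, without week 12 4 and 3, and without HFD118 5 and 1. The highest were the amyloid peptide gene Iapp (0.35), the urocortin Ucn3 (0.29) and Ins1 (0.23). The lowest were the glucose transporter Slc2a2 (-0.36) and the insulin gene activator Mafa (-0.30), and the smallest rise that was called was that of the sulfonylurea receptor Abcc8 (0.09). The Mafa call was lost without CD106, CD205, CD307, CD308, CD407, CD501, CD605, HFD112, HFD118, HFD211, HFD212, HFD313, HFD316, HFD411, HFD511 or HFD614, with adjusted p up to 0.0627, and with insulin left out of the total (0.117). That of Abcc8 was lost without CD104, CD106, CD205, CD208, CD304, CD308, CD401, CD405, CD507, CD608, HFD113, HFD118, HFD211, HFD213, HFD316, HFD318, HFD411, HFD414, HFD516, HFD614 or HFD616, with adjusted p up to 0.0719, and with no filter (0.0529) or without week 12 (0.184).

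Gast, the gene of gastrin, a hormone of the stomach that the embryonic pancreas also makes, was low in islets, at 1 FPKM or more in 2 of 48 libraries. At week 4 it was 0.59, 0.61, 0.61 and 0.72 FPKM on CD and 0.39, 0.51, 0.21 and 0.2 FPKM on HFD, with every HFD library below every CD library. At week 8 it was 0.09, 0.86, 0.21 and 0.1 FPKM on CD and 1.07, 1.37, 0.94 and 0.33 FPKM on HFD, where 3 HFD libraries stood above all CD libraries. The medians over all weeks were 0.29 on CD and 0.36 on HFD. The mean of the weekly HFD minus CD differences was 0.06 on the log2 scale (p = 0.438, 2-sided permutation of the diet labels within weeks, 1 of 4 members tested so, p not adjusted). By week, exact permutation tests of 4 against 4, whose smallest p is 0.0286, gave p = 0.0286 at week 4, for a difference of -0.30, and 0.0571 at week 8, for 0.56. These p are not adjusted, and limma with no filter gave adjusted p of 0.712 at week 4 and 0.169 at week 8. Of genes above 0 at week 4, 2.31% had all HFD libraries below all CD libraries. The HFD mean was higher in 2 weeks and lower in 3, with 1 week level. In liver Gast was 0 in all 48 libraries, and the islet minus liver difference in CD mice was 0.42 (adjusted p = 3.17e-11, limma with no filter).

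Cck, the gene of cholecystokinin, a peptide of gut and brain that can be made in islets of obese mice, was at 1 FPKM or more in 2 of 48 islet libraries. It was 0, 0, 0 and 0 FPKM on CD and 1.09, 0.47, 0.35 and 0.06 FPKM on HFD at week 16. All 4 HFD libraries of that week were above the CD libraries, which were all at 0, as for 4.84% of genes above 0 at week 16. At week 4 the HFD libraries were 0, 0.06, 0 and 2.62 FPKM, the last being HFD118, described above, and the CD libraries 0, 0.06, 0.06 and 0.06 FPKM. The HFD mean was higher in 5 of 6 weeks, and in 4 of 6 without HFD118. The mean difference over weeks was 0.17 (p = 0.0812, permutation within weeks), and 0.09 without HFD118 (p = 0.166). The p fell under 0.05 without CD505 (0.00808), HFD112 (0.0499), HFD114 (0.0494) or HFD418 (0.0463). At week 16 the difference was 0.53 (p = 0.0286, the smallest an exact test of 4 against 4 gives, not adjusted). In limma with no filter Cck had an adjusted p of 0.108 at week 16 and 0.18 for the mean over weeks. In liver Cck was above 0 in 3 libraries, all on HFD, at 0.32, 0.06 and 0.05 FPKM, and islets of CD mice were 0.12 above their livers (adjusted p = 0.00276, limma with no filter).

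The gastrin and cholecystokinin list had 4 genes, of which 1, the receptor gene Cckar, was tested. It fell on HFD (-0.57, adjusted p = 0.00642, limma), and without week 12 the difference was -0.40 (0.0712). From the first to the last sampled week, each fitted alone, the HFD minus CD difference of Cckar was -0.72, 0.07, -1.41, -1.47, 0.39 and -0.28. Acinar cells also express Cckar, and the acinar marker sums, given above, were highest in CD islets at week 12. The part of acinar RNA in the Cckar difference was not tested.

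**Figure D3:**
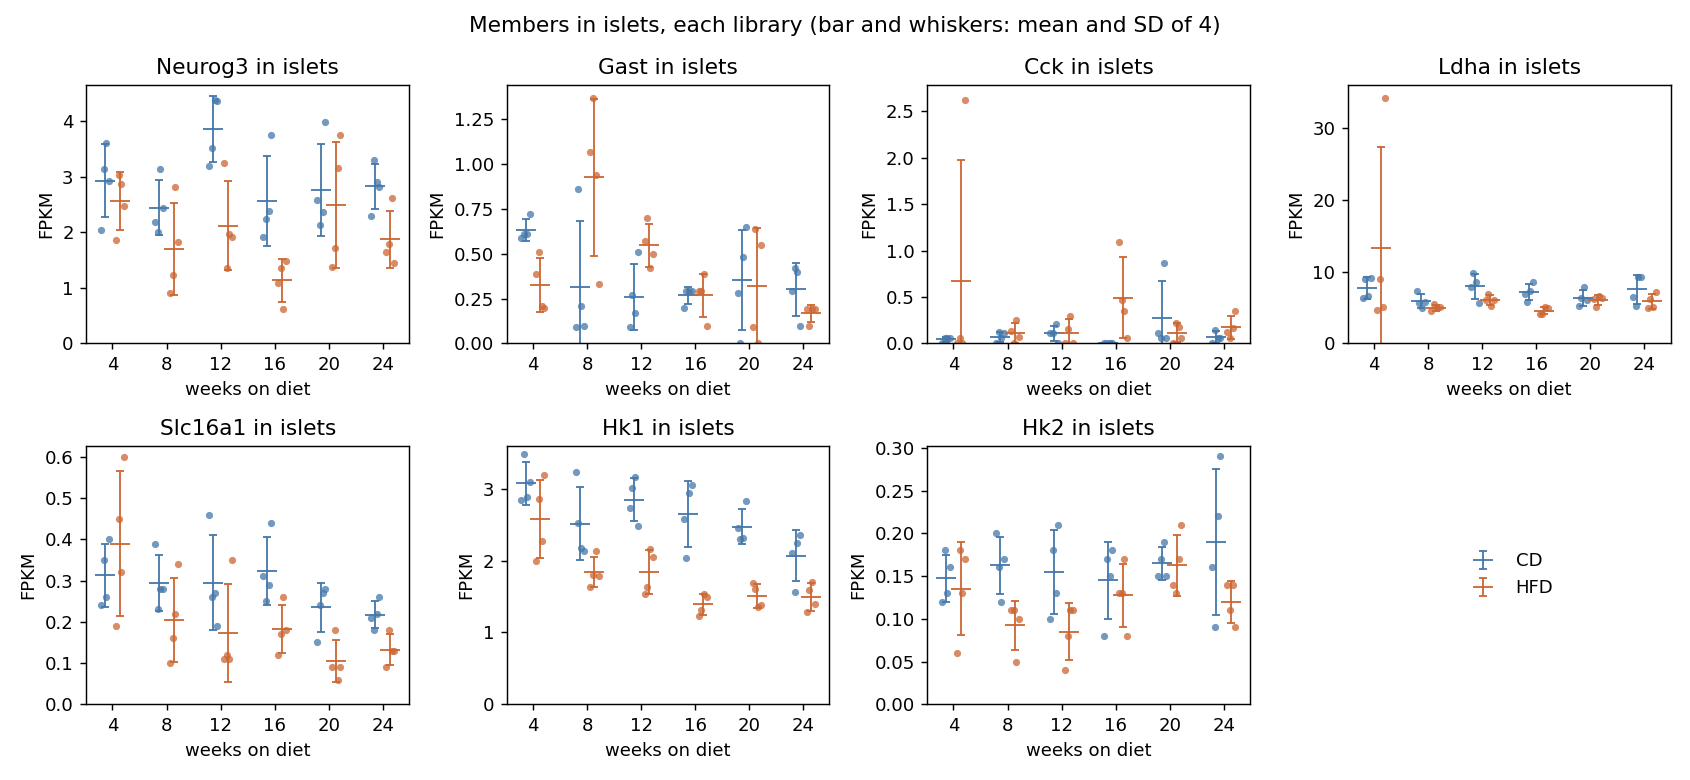
Levels (FPKM) of the members other than Aldh1a3 in each islet library against weeks on diet, with CD in blue and HFD in orange. Points are mice, bars and whiskers the mean and SD of 4, and every HFD library of week 16 is below every CD library for Neurog3, Ldha and Hk1.

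Ldha, which interconverts pyruvate and lactate, was the most abundant disallowed member in islets. At week 16 it was 6.94, 5.77, 7.32 and 8.53 FPKM on CD (7.14 ± 1.14) and 4.08, 4.17, 5.04 and 4.96 FPKM on HFD (4.56 ± 0.508), with every HFD library below every CD library, as in at least 1 week for 29.1% of genes. At week 4 the CD libraries were 6.36, 9.03, 6.57 and 9.14 FPKM and the HFD libraries 4.61, 9.03, 5.07 and 34.25 FPKM, and the last value, of HFD118, was the highest of any islet library. At the other weeks the diets overlapped, and over all weeks the median was 6.76 FPKM on CD (5.01 to 9.81) and 5.17 on HFD (4.08 to 34.25).

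The mean over weeks was -0.19 for Ldha (SE 0.117, adjusted p = 0.193, limma), and without HFD118 it was -0.29 (0.000665), past the threshold. The HFD mean was the lower in 5 of 6 weeks, and in 6 of 6 without HFD118. By week it passed at week 16 (-0.54, adjusted p = 0.00379), where fitting all islet libraries together ended the call (0.281). The other weeks gave 0.27 (0.917), -0.21 (0.187), -0.33 (0.172), -0.04 (0.823) and -0.30 (0.336) at weeks 4, 8, 12, 20 and 24, and week 12 passed without CD308 (-0.47, 0.0354). Without HFD118 week 4 gave -0.31 (0.621), so the positive sign there rested on this library. The later minus earlier difference was -0.21 (0.673), and -0.01 (0.97) without HFD118, and CD islets at week 24 minus week 4 gave -0.05 (0.911).

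Slc16a1, the transporter that carries lactate and pyruvate across the cell membrane, lay between 0.15 and 0.46 FPKM in CD islets and between 0.06 and 0.6 in HFD islets, under 1 FPKM in all 48 libraries. At week 20 it was 0.15, 0.24, 0.27 and 0.28 FPKM on CD and 0.09, 0.18, 0.06 and 0.09 FPKM on HFD. Of these HFD libraries 3 were below all CD libraries, and the diets overlapped through 1 library of each. The HFD mean was lower in 5 of 6 weeks, the exception being week 4. The mean difference was -0.10 (p = 0.00194, permutation within weeks), and -0.11 without HFD118 (p = 0.00022). In limma with no filter Slc16a1 had an adjusted p of 0.00617, where 30.8% of 19861 genes passed. Its islet difference was not recomputed with median ratio scaling or with insulin left out of the total. By week the lowest exact permutation p was 0.0571, at weeks 16, 20 and 24.

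Hk1, a low-Km hexokinase, was lower in HFD islets at every week in its mean. At week 4 it was 2.84, 3.49, 2.89 and 3.09 FPKM on CD (3.08 ± 0.295) and 2, 2.86, 2.28 and 3.19 FPKM on HFD (2.58 ± 0.541). At week 8 it was 3.24, 2.52, 2.18 and 2.13 FPKM (2.52 ± 0.512) and 1.64, 1.8, 2.13 and 1.79 FPKM (1.84 ± 0.207). The diets overlapped at both weeks. At week 12 Hk1 was 2.74, 3.01, 3.17 and 2.49 FPKM on CD (2.85 ± 0.3) and 1.54, 1.63, 2.16 and 2.05 FPKM on HFD (1.84 ± 0.306). At week 16 it was 2.58, 2.04, 2.95 and 3.06 FPKM (2.66 ± 0.46) and 1.23, 1.31, 1.53 and 1.5 FPKM (1.39 ± 0.146), and at week 20 2.46, 2.3, 2.31 and 2.83 FPKM (2.48 ± 0.248) and 1.69, 1.61, 1.35 and 1.38 FPKM (1.51 ± 0.168). At these 3 weeks every HFD library was below every CD library, as in at least 3 weeks for 4.14% of genes. At week 24 it was 2.11, 1.57, 2.25 and 2.36 FPKM (2.07 ± 0.35) and 1.28, 1.59, 1.71 and 1.4 FPKM (1.5 ± 0.192), with overlap.

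Over the 6 weeks Hk1 fell by 0.38 on HFD (SE 0.042, adjusted p = 8.92e-10, limma). By week the difference passed at weeks 12 (-0.44, adjusted p = 0.0237), 16 (-0.61, 0.00157) and 20 (-0.47, 0.0154), and was -0.20 (0.713), -0.30 (0.108) and -0.30 (0.105) at weeks 4, 8 and 24. The week 12 call was lost without CD306 (0.0694), CD307 (0.0893), HFD313 (0.089) or HFD315 (0.0734), and with insulin left out of the total (-0.23, 0.19), which moved the median of all genes at that week from 0.008 to 0.258. The week 20 call was lost without HFD517 (0.0592) or HFD518 (0.0596). Week 24 passed with all islet libraries in 1 fit (0.0493) and with median ratio scaling (-0.34, 0.0431). The later minus earlier difference was -0.14 (0.356). In CD islets Hk1 fell by 0.41 between week 4 and week 24 (SE 0.103, adjusted p = 0.00213), the only tested member past the threshold there.

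Hk2, the other low-Km hexokinase of the list, was under 0.3 FPKM in all 48 islet libraries. At week 8 it was 0.2, 0.16, 0.12 and 0.17 FPKM on CD and 0.11, 0.11, 0.05 and 0.1 FPKM on HFD. Every HFD library was below every CD library at that week, as for 11.5% of genes above 0 at week 8. The HFD mean was lower in 6 of 6 weeks, with medians of 0.16 on CD and 0.12 on HFD. The mean difference was -0.05 (p = 0.00202, permutation within weeks), with an adjusted p of 0.00954 in limma with no filter. This difference was not recomputed with median ratio scaling or with insulin left out of the total. At week 8 it was -0.09 (p = 0.0286, the smallest an exact test gives, not adjusted), with an adjusted p of 0.133 in limma with no filter.

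Calls at single weeks ran over all genes as follows. At week 4 limma called 0 of 11569 genes (0.00%), with 854 at an unadjusted p under 0.05, and 0 members. Of all tested genes, 5.27% passed at week 8, when 0 of the 3 tested members other than Aldh1a3 did. The shares were 4.53% of genes and 2 of 3 members in week 12, 8.45% and 3 of 3 in week 16, 4.74% and 1 of 3 in week 20, and 8.30% and 1 of 3 in week 24. The later minus earlier comparison called 3.16% of 12378 genes and 0 of these 3 members. Leaving insulin out of the total moved the median of all genes at week 16 from 0.011 to 0.188, and median ratio scaling moved it at week 8 from -0.106 to 0.

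Among all 21 disallowed genes of the list, 15 were tested, and 9 fell on HFD and 0 rose in the mean over weeks, with a median of -0.21, in the fit in which 38.6% of all genes passed and 2722 of 12378 were lower. The falls were 8 with median ratio scaling, 7 with insulin left out of the total and 10 without HFD118. The lowest were the transglutaminase Tgm2 (-0.55), the ornithine aminotransferase Oat (-0.46) and the chemokine Cxcl12 (-0.45), and the smallest falls those of Smad3 (-0.27), Ndrg2 (-0.21) and Lmo4 (-0.09). The call of Lmo4 was lost without CD106, CD203, CD501, CD608, HFD114, HFD211, HFD414 or HFD616, with adjusted p up to 0.0578, with median ratio scaling (0.132), with insulin left out of the total (0.461) and without week 12 (0.0741). By single week 0, 0, 4, 10, 2 and 4 of the 15 were called lower from week 4 to week 24 and 0 higher, where the shares of all genes were those given above. The alpha, delta and PP markers, whose sums are given above, were lower in the same HFD libraries, and their part in these falls was not tested.

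Of 15 lactate and pyruvate genes 11 were tested, with 3 higher, the kinase Pdk3 (0.14), the transporter chaperone Bsg (0.07) and the pyruvate carrier subunit Mpc2 (0.06), and 1 lower, the kinase Pdk4 (-1.15), beside 38.6% of all genes called in that fit. With median ratio scaling 4 were higher and 1 lower, with insulin left out of the total 6 and 1, without week 12 1 and 1, and without HFD118 3 and 2. The Bsg call was lost without week 12 (0.058), and that of Mpc2 without week 12 (0.0683) or without CD308 (0.0537). All 17 glycolysis genes were tested, with 4 higher, Pgk1 (0.17), Eno1 (0.10), Pfkm (0.09) and Pgam1 (0.06), and 2 lower, Aldoc (-0.16) and Pklr (-0.10). Only Pgk1 of these 6 was past the threshold without week 12. The Pgam1 call was also lost without CD106, CD401, HFD114, HFD217 or HFD418 (adjusted p up to 0.0521), that of Aldoc without CD101, CD104, CD207, CD306, CD308, CD505, CD507, CD601, CD605, HFD114, HFD212, HFD217, HFD315, HFD316, HFD416, HFD418, HFD517, HFD518, HFD614 or HFD617 (up to 0.069), and that of Pklr without CD101, CD203, CD207, CD306, CD403, CD407, CD505, CD507, CD601, CD605, HFD112, HFD113, HFD114, HFD211, HFD316, HFD416, HFD418, HFD516, HFD517 or HFD614 (up to 0.0744), and the median difference of the list was 0.04, where 8 were higher and 0 lower with median ratio scaling and 9 and 0 with insulin left out of the total. Of 15 hypoxia targets 12 were tested, with 4 higher, the oxygen sensor Egln3 (0.28), P4ha1 (0.25), Pgk1 and Bnip3 (0.14), and 1 lower, the demethylase Kdm3a (-0.11), whose call was lost without week 12 (0.0641) and with insulin left out of the total (0.404). Egln3 averaged 0.326 FPKM on CD and 0.659 FPKM on HFD, so that only its highest libraries kept it past the filter. The highest of them was HFD118, described above, at 2.06 FPKM, with at most 1.42 in any other islet library.

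In liver the 4 disallowed members had other levels. Ldha ran from 265.14 to 964.43 FPKM on CD and from 390.22 to 895.32 on HFD, and Slc16a1 from 5.34 to 49.14 and from 4.85 to 21.09. Hk1 ran from 0.24 to 0.95 FPKM on CD and from 0.44 to 1.6 on HFD. Ldha and Slc16a1 overlapped between the diets at all 6 weeks, and Hk1 at 5 of 6. In CD mice the islet minus liver difference was -5.96 for Ldha (SE 0.10, adjusted p = 4.60e-42), -3.29 for Slc16a1 (0.126, 1.33e-27) and 1.14 for Hk1 (0.053, 2.83e-24) by limma with no filter, so that Hk1 alone of these 3 was the higher in islets. With no filter 81.0% of 19770 genes passed. With the filter, which keeps a gene that is high in 1 tissue only, 94.9% of 11787 genes passed, 7797 higher in islets and 3391 lower. With median ratio scaling that split was 5551 and 5403, the median of all genes moving from 0.664 to 0.016, and with insulin left out of the total it was 9468 and 1988, with a median of 1.35. Hk2 differed by 0.01 (adjusted p = 0.753, no filter).

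Hk2 was higher in HFD than in CD livers. At week 12 the CD livers held 0.16, 0.13, 0.14 and 0.08 FPKM (0.128 ± 0.034) and the HFD livers 0.62, 0.53, 0.28 and 0.63 FPKM (0.515 ± 0.163). At week 16 they held 0.11, 0.12, 0.07 and 0.13 FPKM (0.107 ± 0.0263) and 0.32, 0.68, 0.9 and 0.86 FPKM (0.69 ± 0.265). Every HFD liver was above every CD liver in 4 of 6 weeks, 12, 16, 20 and 24, as in at least 4 weeks for 1.90% of 18453 genes above 0. At week 20 the levels were 0.14, 0.24, 0.12 and 0.22 FPKM on CD (0.18 ± 0.0589) and 0.91, 0.56, 1.56 and 0.34 FPKM on HFD (0.843 ± 0.533), and at week 24 0.25, 0.25, 0.19 and 0.29 FPKM (0.245 ± 0.0412) and 0.59, 0.51, 0.82 and 0.65 FPKM (0.642 ± 0.131). The ratio of the means was 1.91, 2.63, 4.04, 6.42, 4.68 and 2.62 at weeks 4, 8, 12, 16, 20 and 24. The mean difference was 0.41 (SE 0.049, adjusted p = 4.99e-08, limma with no filter, since 1 liver reached 1 FPKM). It was not recomputed with median ratio scaling or with insulin left out of the total.

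Hk1 in liver was 0.31, 0.74, 0.71 and 0.24 FPKM on CD and 0.9, 0.8, 0.79 and 1.06 FPKM on HFD at week 4, the 1 week without overlap, as in at least 1 week for 25.5% of genes above CD. Its mean difference was 0.17 (SE 0.048, adjusted p = 0.00475, limma with no filter, since the filter would have kept Hk1 for its HFD livers alone). Ldha differed by 0.18 (SE 0.075, 0.0528) and Slc16a1 by 0.06 (SE 0.135, 0.747), and for each the HFD mean was the higher in 4 weeks and the lower in 2. With the filter 0 of these last 2 members passed, against 42.6% of 10879 genes, 3892 higher and 738 lower, a split of 1912 and 2332 with median ratio scaling. Ldha passed without any 1 of 12 livers, those of CD101 (0.0131), CD205 (0.0345), CD306 (0.0166), CD605 (0.0469), CD606 (0.0462), HFD118 (0.0418), HFD217 (0.0267), HFD318 (0.0499), HFD411 (0.0484), HFD414 (0.0484), HFD516 (0.0377) and HFD614 (0.0199), and also without the 2 livers that held insulin RNA (0.0223) or with insulin left out of the total (0.0209), and had 0.06 (0.556) with median ratio scaling.

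**Figure D4:**
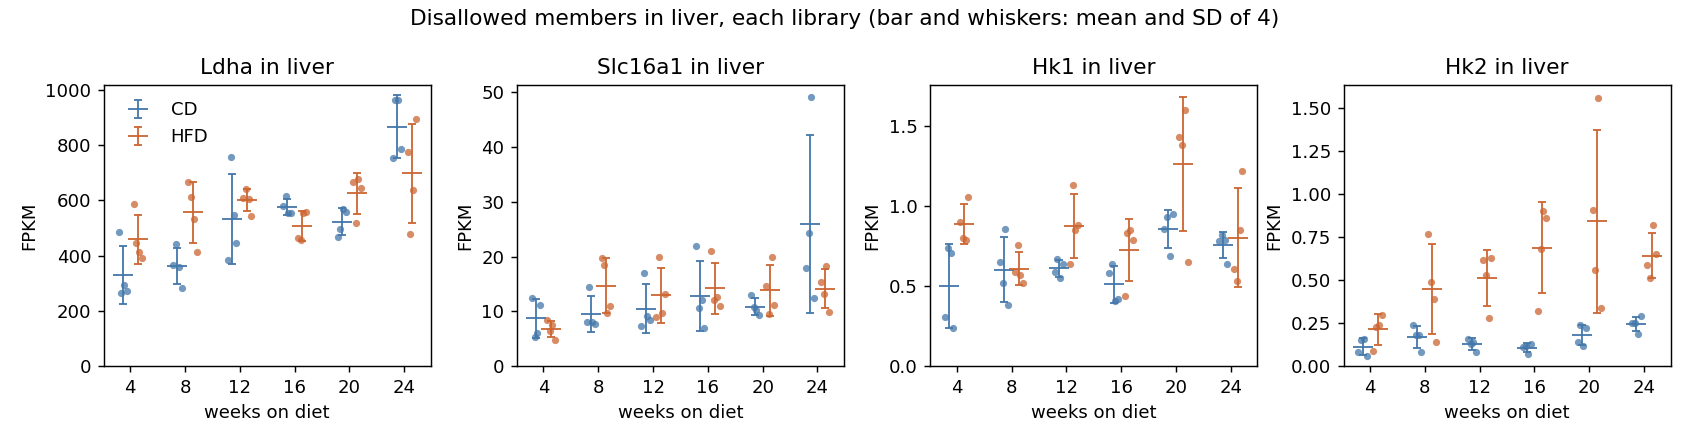
Levels (FPKM) of Ldha, Slc16a1, Hk1 and Hk2 in each liver library against weeks on diet, with CD in blue and HFD in orange. Points are mice, bars and whiskers the mean and SD of 4, and every HFD liver is above every CD liver for Hk2 at weeks 12, 16, 20 and 24.

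The diet differences of the 2 tissues were compared on the islet minus liver value of each mouse, an alternative added after seeing the data. The islet difference of Hk1 was 0.56 below the liver difference, at -0.56 (SE 0.061, adjusted p = 3.53e-09, limma with no filter). That of Ldha was at -0.37 (SE 0.146, 0.041), or -0.48 (2.72e-04) without HFD118. Those of Hk2 and Neurog3, the latter at 0 in nearly all livers, were at -0.46 (SE 0.052, 8.63e-09) and -0.41 (SE 0.085, 1.83e-04), and those of Slc16a1 and Cck at -0.16 (SE 0.151, 0.427) and 0.14 (SE 0.094, 0.241). The Neurog3 value restates its islet difference of -0.42, since its liver difference was -0.002, and compares no liver level. So 4 of these 6 members passed, all lower, Neurog3 for its islet difference alone, against 39.6% of 18159 genes, 1219 higher and 5967 lower. This split was 3456 and 3671 under median ratio scaling and 1528 and 4185 with insulin left out of the total. The Ldha call was lost under both, at -0.22 (0.223) and -0.33 (0.0732), and those of Hk1, Hk2 and Neurog3 were kept. With the filter, 41.8% of 9936 genes passed.

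By position, in the genome build of the table (GRCm38.p5), Neurog3 (chr10:62133090-62134763, plus strand) and Hk1 (chr10:62268855-62379916, minus strand) lie 134091 bases apart on chromosome 10, and Aldh1a3 (chr7:66390892-66427477, minus strand) and Ldha (chr7:46845804-46855627, plus strand) share chromosome 7. Gast is at chr11:100334407-100336997 (plus), Cck at chr9:121489824-121495694 (minus), Slc16a1 at chr3:104638664-104658462 (plus) and Hk2 at chr6:82725023-82774454 (minus).

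Promoter sequences from RefSeq (GRCm38.p6) matched 7 of 8 members with 9 entries, Aldh1a3 being the member without one. The 250 bases before the start of an entry are shown for the 4 disallowed members, the set whose low level in beta cells is the subject here. Their HFD islet means were lower in 5 or 6 of 6 weeks, as was that of Neurog3, whose window held none of the 3 motifs described next. Capitals mark matches on either strand to the core of the hypoxia response element, ACGTG, which reads CACGT on the other strand. They also mark the GC box, GGGCGG, which reads CCGCCC on the other strand, and the TATA box, TATAAA, which reads TTTATA. The palindrome CACGTG, which overlaps itself on the other strand, counts on each. Ldha (chr7:46845554-46845803, plus strand) held 5 ACGTG and 2 GGGCGG matches, Slc16a1 (chr3:104638414-104638663, plus strand) 2 and 1, Hk2 (chr6:82774455-82774704, minus strand) 2 and 3, and Hk1 (chr10:62379909-62380158, minus strand) 0 of each. The Hk1 window reaches a few bases into the gene span given above, which ends at 62379916.
Ldha: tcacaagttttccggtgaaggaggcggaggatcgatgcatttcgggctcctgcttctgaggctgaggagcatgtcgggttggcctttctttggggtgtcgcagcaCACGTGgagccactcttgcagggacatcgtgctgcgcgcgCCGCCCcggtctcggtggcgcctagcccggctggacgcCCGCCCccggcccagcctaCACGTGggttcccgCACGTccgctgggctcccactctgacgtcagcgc
Slc16a1: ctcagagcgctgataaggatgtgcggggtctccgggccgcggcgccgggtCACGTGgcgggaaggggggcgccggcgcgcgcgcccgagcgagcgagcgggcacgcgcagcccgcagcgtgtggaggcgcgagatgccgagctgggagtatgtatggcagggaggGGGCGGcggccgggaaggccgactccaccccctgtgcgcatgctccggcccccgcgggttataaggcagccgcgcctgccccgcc
Hk2: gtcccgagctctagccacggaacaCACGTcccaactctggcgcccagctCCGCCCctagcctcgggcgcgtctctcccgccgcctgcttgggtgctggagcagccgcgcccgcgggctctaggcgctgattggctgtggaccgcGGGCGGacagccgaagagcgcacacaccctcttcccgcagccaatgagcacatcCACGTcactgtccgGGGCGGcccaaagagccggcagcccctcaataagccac
Hk1: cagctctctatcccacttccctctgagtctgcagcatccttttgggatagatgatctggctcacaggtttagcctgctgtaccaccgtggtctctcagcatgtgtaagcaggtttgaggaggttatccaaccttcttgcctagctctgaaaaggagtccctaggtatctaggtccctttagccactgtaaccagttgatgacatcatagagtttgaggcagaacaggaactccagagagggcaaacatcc

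Of 32851 promoter windows of this length, 16.6% held ACGTG, 32.7% GGGCGG and 12.4% TATAAA. A second Ldha entry and a second Hk1 entry held none of the 3 motifs. TATAAA was found in 1 member, Gast. The Cck window held 2 ACGTG matches, and its HFD islet mean was the higher in 5 of 6 weeks. A match is a description of these letters in the window, and no site or cause.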

How the data were processed

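The FPKM values were computed by the authors from poly(A) RNA sequenced on a BGISEQ-500 and deposited in 1 table for 48 islet and 48 liver libraries. The submitters' processing notes name HISAT2 2.0.4, Bowtie2 2.2.5, RSEM 1.1.12, DESeq2 and the build GRCm38.p5. The table's columns of the authors' own comparisons (fold changes, p and q values by DEGseq) and of their gene clusters and modules were not used. Fragments per library were not used here, so depth sets no interval, and precision rests on 4 mice per group.

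Differences were tested with limma 3.58.1 (R 4.3.3) on log2(FPKM + 1), with robust variances that follow a trend in the mean, keeping genes that reached 1 FPKM in 4 or more libraries (24 for CD islets minus livers, where members are given from the fit with no filter, as are Hk1 and Hk2 in liver and the comparison of the 2 tissues' diet differences). Each week's 8 islet libraries had a fit of their own, and means over weeks came from 1 fit of the 48 libraries of a tissue. Adjusted p is by Benjamini-Hochberg over every gene tested, with a threshold of 0.05. For Cck, Gast, Slc16a1 and Hk2, too low in islets for the filter, diet labels were permuted within weeks (100000 resamples, 2-sided) or exactly for 4 against 4, with SciPy 1.17.1 and NumPy 2.4.6. The code was tested on simulated data. Alternatives were a pseudocount of 0.1, no filter, median ratio scaling, totals without insulin, all islet libraries in 1 fit, each library left out in turn (with the filter then at 3 libraries, or 23 for CD islets minus livers) and a mouse block, and, added after seeing the data, leaving out week 12 or the 2 livers with insulin RNA, testing the islet minus liver value of each mouse with and without the filter and under both scalings, and the mouse block with no filter.

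Islet and liver libraries with the same mouse number come from the same animal. The comparison of the 2 tissues' diet differences used these pairs. The CD islet minus liver fit had tissue and week but not the mouse, so its p are unpaired. With the mouse as a block and no filter, limma gave an adjusted p of 2.33e-26 for Ldha and 4.60e-16 for Hk1. As a check of the pairs, the correlation of islet and liver deviations from the group means had a median of 0.167 over 24 CD mice (-0.0841 to 0.304, 9936 genes).

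Named from the lists (retinoid, aldehyde dehydrogenases, dedifferentiation, endocrine progenitor, beta cell identity, disallowed, lactate and pyruvate, glycolysis, hypoxia targets, gastrin and cholecystokinin) were all genes past the threshold, or the 3 highest and 3 lowest where more than 6 passed, and the 10 genes most correlated with Aldh1a3. 1 further list of the design is not reported here. Members and lists were chosen with earlier results of these data known. Promoters were read from RefSeq tables, and figures drawn with Matplotlib 3.10.9 in Python 3.11.15 (pandas 2.3.3).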

Additional observations from a re-analysis of the deposited data

Results flagged for a closer look

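In 159 groups of 4 libraries that were examined, 19 had a value far from the other 3. The gap was past the critical share of the group's range in Dixon's test, where chance gives about 1 in 20 for values without ties. In islets these were Aldh1a3 at 16.18 FPKM in HFD315 (week 12), Ldha at 34.25 and Cck at 2.62 in HFD118 (week 4), Cck at 0 in CD101 (week 4) and 0.87 in CD505 (week 20), and Hk2 at 0.05 in HFD213 (week 8). Slc16a1 was at 0.35 in HFD318 (week 12). Gast was at 0.72 in CD106 (week 4), 0.86 in CD205 (week 8), 0.2 in CD401 (week 16) and 0.1 in HFD614 (week 24).

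In liver these were Aldh1a3 at 0.24 FPKM in CD502 (week 20) and 0.23 in CD601 (week 24), Cck at 0.05 in HFD511 (week 20), Hk1 at 0.44 in HFD411 (week 16), Ldha at 485.72 in CD101 (week 4) and Slc16a1 at 14.41 in CD205 (week 8). Neurog3 was at 0.02 in CD306 (week 12) and in CD407 (week 16), the livers with 3541 and 2408 FPKM of insulin RNA. In the liver groups flagged for Neurog3 and Cck all other values were 0, so any value above 0 was flagged and the chance share does not apply. Nor does it apply in islets to Cck in CD101, Gast in CD401 and Gast in HFD614, where the other values of the group were equal.

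Between tissues, the mean HFD minus CD difference in islets minus that in liver was -0.56 for Hk1, -0.46 for Hk2, -0.41 for Neurog3 and -0.37 for Ldha, tested on the value of each mouse (adjusted p = 3.53e-09, 8.63e-09, 1.83e-04 and 0.041, limma with no filter). Neurog3 was at 0 in nearly all livers, with a liver difference of -0.002, so its value restates its islet difference of -0.42. The value for Ldha did not pass with median ratio scaling (0.223) or with insulin left out of the total (0.0732).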

How the results depend on the processing

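Of 1876 values recomputed under alternatives, 1794 kept their direction and side of the threshold or, for counts, stayed within 1.5 times, and none changed direction past the threshold. With all islet libraries in 1 fit, limma called 17, 949, 1219, 1201 and 1620 genes at weeks 4, 8, 12, 20 and 24. With no filter it called 154 at week 8 and 1637 at week 16. With median ratio scaling it called 178, 990 and 1544 at weeks 8, 12 and 16, and with insulin left out of the total 3074, 5224 and 1202 at weeks 12, 16 and 20 and about 2.2e+02 (93 higher and 124 lower) in the later minus earlier comparison. The liver difference of Ldha was 0.21 with insulin left out of the total and 0.21 without the 2 livers with insulin RNA, both past the threshold. The cause was not tested.

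Leaving out 1 library at a time, which also lowers the filter from 4 libraries to 3, so that 2 choices change at once, the calls ran from 0 to 3 at week 4 (3 without HFD118), 116 to 1787 at week 8 (1787 without HFD217), 347 to 817 at week 12 (817 without CD304), 140 to 2207 at week 20 (2207 without HFD511), 563 to 1199 at week 24 and 287 to 877 for later minus earlier (877 without CD304). Ldha ran from -0.29 to -0.14 in islets and from 0.15 to 0.21 in liver, and Cck in islets from 0.089 to 0.198. With the mouse as a replicate block and no filter, the CD islet minus liver differences were 1.14 for Hk1, -5.96 for Ldha, 1.94 for Neurog3, -3.29 for Slc16a1, 1.52 for Aldh1a3, 0.42 for Gast, 0.12 for Cck and 0.01 for Hk2, with 15919 genes called, and the block changed no call of these 8. The comparison of the diet differences of the 2 tissues called 7186 genes with no filter, 7226 with no filter and without HFD118, and 7127 with no filter and median ratio scaling, where Ldha was -0.22, and -0.33 with no filter and insulin left out of the total, both short of the threshold.

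Limits are the 4 mice per group, levels under 1 FPKM that move in steps of few fragments, FPKM as a share of a total that is mostly insulin RNA, and bulk tissue, in which the cells that hold a transcript are not seen. A p that misses the threshold does not show that levels were alike. The calls of Hk1 at weeks 12 and 20 and of Neurog3 at weeks 16 and 24 depended on single libraries, which are named beside them, and those of Hk1 at week 16 and Neurog3 at week 12 on none.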
